A study of Mus musculus with 6 samples.

Results

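The genes described here are 9 components of the Hedgehog pathway, chosen by name: the ligand Shh, the receptor Ptch1, the co-receptor Boc, the ligand-binding protein Hhip, the signal transducer Smo, the inhibitor Sufu and the transcription factors Gli1, Gli2 and Gli3. They were looked up by Ensembl identifier in the table of 17068 genes, and 8 of the 9 were found. Shh was not analysed here. The data are bulk RNA-Seq of lateral cortex from 6 female c57/bl6 embryos at E12.5. The 4 controls carried no Cre. Controls 1, 2 and 4 were Foxp1 fl/+ and control 3 was Foxp1 fl/fl. The other 2 libraries, labelled Foxp1cKO, came from Foxp1 fl/fl;Emx1Cre embryos. Every embryo thus carried at least 1 floxed allele of Foxp1, a forkhead transcription factor gene. Emx1 drives Cre in the progenitors of the dorsal telencephalon and in the neurons made from them, so vessels, meninges and ventrally derived cells in the same piece of tissue lie largely outside its reach.

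Hedgehog ligand binds Ptch1 at the primary cilium and lifts the block that Ptch1 places on Smo. Active Smo releases the Gli proteins from Sufu, so that Gli2 and Gli3 are no longer cut into repressors, and Gli1 is made as a target. Ptch1, Gli1 and Hhip are themselves switched on by the pathway in most tissues, and their RNA is commonly read as its output. In the embryonic forebrain Shh is made ventrally, where it specifies the medial ganglionic eminence, whereas the cortex is rich in Gli3, which acts there mostly as a repressor and keeps ventral genes silent.

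Foxp1 itself showed no loss of RNA under the Foxp1cKO label. It had 59.7, 60.8, 71.2 and 79.1 CPM (counts scaled to library size with edgeR's TMM factors) in controls 1 to 4, and 83.2 and 76.8 CPM in the libraries labelled Foxp1cKO 1 and 2, a log2 fold change of 0.24 (SE 0.129, adjusted p = 0.468, edgeR). Counts over the whole gene do not separate the floxed exons from the rest, and the groups are named by their labels throughout. Markers of the dissected tissue were strongly expressed, with 9 of 10 listed radial glia markers found and a summed level of 1672 to 2433 CPM in the controls and 1923 to 2070 CPM in the libraries labelled Foxp1cKO. Control 3 stood apart. Of 12 listed markers of the ventral telencephalon, 11 were found, and all 11 were highest in control 3. Their sum was 162, 262, 620 and 201 CPM in controls 1 to 4, and 418 and 280 CPM in the libraries labelled Foxp1cKO 1 and 2. Nkx2-1, which defines the medial ganglionic eminence, had 0.307, 0.596, 13.2 and 0.216 CPM in controls 1 to 4, and 1.07 and 0.475 CPM in the libraries labelled Foxp1cKO 1 and 2. In all 11 of these markers Foxp1cKO 1 was above Foxp1cKO 2. Control 3 is also the one control homozygous for the floxed allele, so that genotype and the content of this dissection cannot be told apart. Results that rest on these libraries are given with and without them. In bulk tissue, fewer cells of a type and less RNA per cell cannot be told apart either.

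Per length of exon, Boc, Gli3 and Smo were the most abundant members in the controls and Hhip the least. Levels between genes are compared here as RPKM, which divides CPM by the summed exon length of GENCODE M21. That length joins the exons of all annotated transcripts of a gene, whichever of them were expressed. The order between genes depends on this choice, and the SD and ranges show only the spread between libraries. Boc had 36.4 ± 5.03 RPKM (SD, n = 4), Gli3 28.1 ± 4.97 RPKM and Smo 24.7 ± 4.40 RPKM. The control ranges of Boc and Gli3 overlapped, as did those of Gli3 and Smo, although the order was the same in each of the 4 controls. Gli2 followed at 13.1 ± 1.22 RPKM (SD, n = 4), Sufu at 10.3 ± 0.730 RPKM and Ptch1 at 3.26 ± 1.61 RPKM, each with a range clear of its neighbours. Gli1, at 0.825 ± 0.497 RPKM, lay wholly below Ptch1. Hhip, at 0.198 ± 0.262 RPKM (SD, n = 4), was below Gli1 in each control, but their ranges overlapped. Of all genes in the table, 92.9% were lower than Boc on this scale, 43.6% lower than Ptch1, 26.6% lower than Gli1 and 10.4% lower than Hhip. The cortex at this stage was thus rich in the RNA of the co-receptor, the transducer and Gli3. Of the 3 genes commonly read as output, Gli1 and Hhip were low, whereas Ptch1 lay nearer the middle of the table. The rarest member in any library still had 37 counts.

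**Figure D1:**
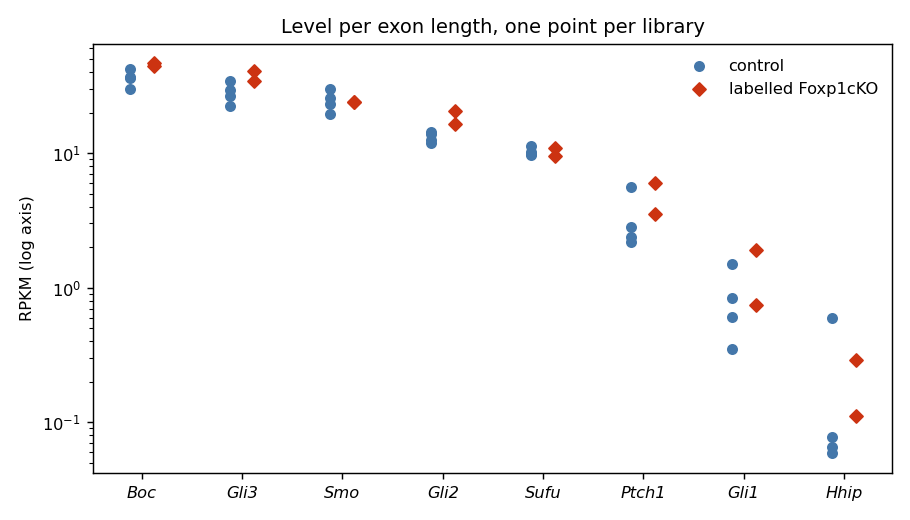
Level of the 8 members in RPKM on a log axis, 1 point per library, in order of the control mean (circles, 4 controls; diamonds, 2 libraries labelled Foxp1cKO). The members span from 36.4 RPKM for Boc to 0.198 RPKM for Hhip in the controls, and Ptch1, Gli1 and Hhip spread far more between controls than the other 5.

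Between the groups, 0 of the 8 members passed an adjusted p of 0.05 in edgeR's quasi-likelihood test, whose background over all genes was 0.152% (26 of 17068). With limma on the deposited VST values the number was also 0. DESeq2's Wald test called 1 of the 8, Gli2, against 3.36% of the 15067 genes to which it gave an adjusted p. By sign, 6 members were higher in the libraries labelled Foxp1cKO and 2 lower, with a median log2 fold change of 0.36, where all genes had a median of -0.0044. An unadjusted p under 0.05 was reached by 3 of the 8, Boc, Gli2 and Gli3, all higher, where 13.0% of all genes reached it and 6.53% did so as higher. In the same 3 members both libraries labelled Foxp1cKO lay above all 4 controls, as in 11.5% of all genes. In 0 of the 8 did both lie below all controls, where 13.1% of all genes did.

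**Figure D2:**
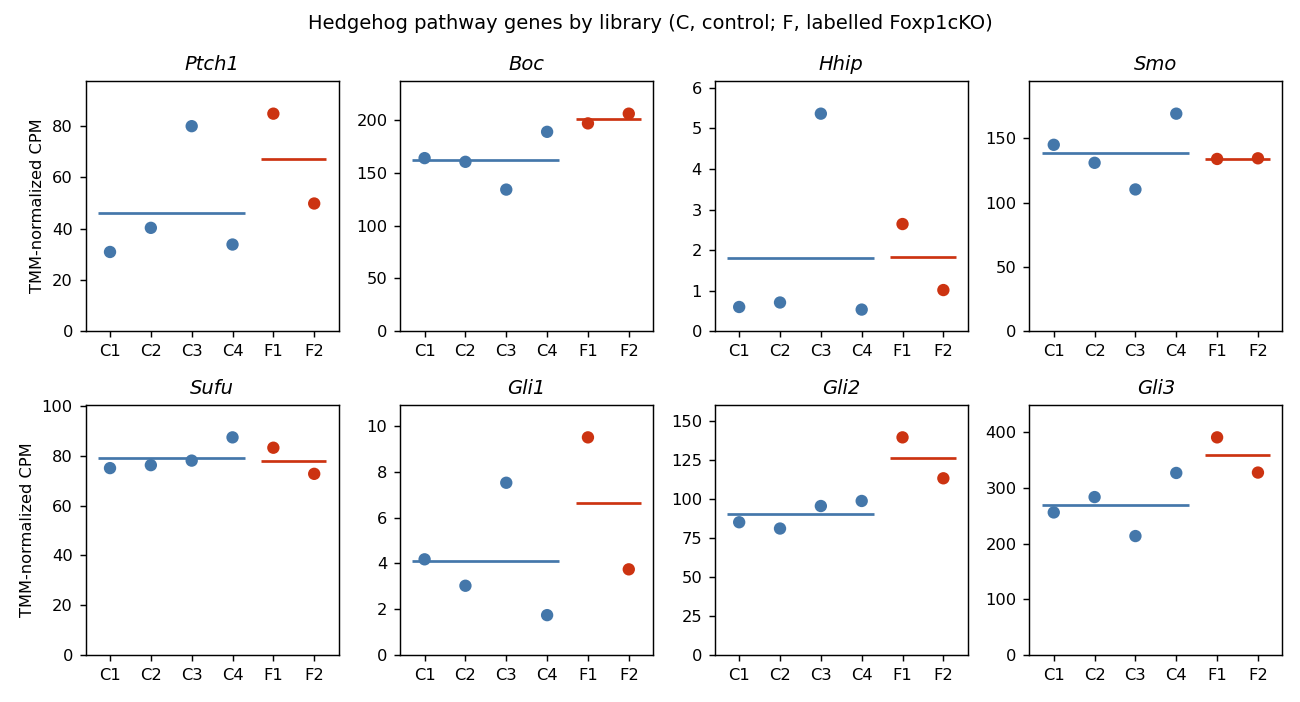
CPM of the 8 members in each library (C1 to C4, controls; F1 and F2, libraries labelled Foxp1cKO), with a line at each group's mean and axes that start at 0. Boc, Gli2 and Gli3 have both F libraries above all controls, whereas in Ptch1, Gli1 and Hhip control 3 (C3) lies far above the other controls.

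The ligand-side members fell into 2 kinds. Ptch1 (ENSMUSG00000021466.12, chromosome 13, 63508328 to 63573598), the receptor that holds Smo inactive and sequesters ligand, had 30.9, 40.3, 79.9 and 33.8 CPM in controls 1 to 4, and 84.8 and 49.8 CPM in the libraries labelled Foxp1cKO 1 and 2. Controls 1, 2 and 4 were below both libraries labelled Foxp1cKO, and control 3 lay between them. Its log2 fold change was 0.54 (SE 0.406, adjusted p = 0.598, edgeR). Without control 3 it was 0.93 (adjusted p = 0.170, edgeR), without Foxp1cKO 1 it was 0.11 (adjusted p = 0.989, edgeR), and without both it was 0.49 (adjusted p = 0.656, edgeR). The size of the Ptch1 difference therefore turned on which of these libraries was kept, and no choice brought it past the threshold.

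Hhip (ENSMUSG00000064325.4, chromosome 8, 79965851 to 80058006), a membrane protein that binds Hedgehog ligands and limits their spread, was near the bottom of the table. It had 0.597, 0.708, 5.37 and 0.533 CPM in controls 1 to 4, from 37 to 391 counts, and 2.64 and 1.02 CPM in the libraries labelled Foxp1cKO 1 and 2. Control 3 was the highest of all 6 libraries, and the other controls were below both libraries labelled Foxp1cKO. The log2 fold change was 0.0075 (SE 1.04, adjusted p = 0.997, edgeR), 1.55 without control 3 (adjusted p = 0.177, edgeR) and -0.83 without Foxp1cKO 1 (adjusted p = 0.969, edgeR). The sign of the Hhip difference thus depended on single libraries, and DESeq2 gave it no p-value.

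Boc (ENSMUSG00000022687.12, chromosome 16, 44485049 to 44558897), an immunoglobulin superfamily co-receptor that presents ligand to Ptch1, behaved differently. It had 164, 160, 134 and 189 CPM in controls 1 to 4, and 197 and 206 CPM in the libraries labelled Foxp1cKO 1 and 2. Both of the latter exceeded all controls, and control 3 was the lowest library. The log2 fold change was 0.32 (SE 0.129, adjusted p = 0.371, edgeR), and it stayed above 0 in each of the 14 alternative fits, from 0.22 to 0.40.

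Smo and Sufu differed by less between the groups than among the controls. Smo (ENSMUSG00000001761.7, chromosome 6, 29735503 to 29761365), the transmembrane protein that carries the signal into the cell, had 145, 131, 110 and 169 CPM in controls 1 to 4, and 134 CPM in each library labelled Foxp1cKO. Both of these lay inside the control range, and control 3 was again the lowest library. Its log2 fold change was -0.049 (SE 0.159, adjusted p = 0.927, edgeR). Sufu (ENSMUSG00000025231.16, chromosome 19, 46396896 to 46488804), which tethers Gli proteins in the cytoplasm, had 75.0, 76.2, 78.0 and 87.4 CPM in controls 1 to 4, and 83.2 and 72.7 CPM in the libraries labelled Foxp1cKO 1 and 2. It was the steadiest member, its highest library 1.20 times its lowest, and the groups overlapped. Its log2 fold change was -0.022 (SE 0.0964, adjusted p = 0.946, edgeR). Smo changed sign without control 4, to 0.060, and Sufu did so without control 4, to 0.028, and without Foxp1cKO 2, to 0.055.

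Of the transcription factors, Gli2 came nearest to the threshold. Gli2 (ENSMUSG00000048402.14, chromosome 1, 118834132 to 119053619), the main activator of Hedgehog targets, had 85.3, 81.2, 95.7 and 98.9 CPM in controls 1 to 4, and 140 and 114 CPM in the libraries labelled Foxp1cKO 1 and 2. The groups did not overlap, and control 3 did not stand out. The log2 fold change was 0.49 (SE 0.118, adjusted p = 0.242, edgeR), which is 1.40-fold. With DESeq2 the same difference had an adjusted p = 0.0242, and over all 14 alternative fits the adjusted p ran from 0.0242 to 0.885 and the log2 fold change from 0.33 to 0.61. The highest log2 fold change came without Foxp1cKO 2 and the lowest without Foxp1cKO 1.

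Gli3 (ENSMUSG00000021318.15, chromosome 13, 15463235 to 15730026), the chief Gli repressor of the dorsal telencephalon, was the member with the highest CPM. It had 256, 283, 213 and 327 CPM in controls 1 to 4, and 391 and 327 CPM in the libraries labelled Foxp1cKO 1 and 2. Both libraries labelled Foxp1cKO were above all controls, but Foxp1cKO 2, at 327.4 CPM, exceeded control 4, at 326.7 CPM, by a margin far inside the spread of either group, and control 3 was the lowest library. The log2 fold change was 0.41 (SE 0.167, adjusted p = 0.370, edgeR). It was 0.28 without Foxp1cKO 1 (adjusted p = 0.917, edgeR), and 0.17 with control 3 left out as well (adjusted p = 0.791, edgeR).

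Gli1 (ENSMUSG00000025407.7, chromosome 10, 127329882 to 127341974), an activator whose own transcription is a direct read-out of Hedgehog signalling, was low and variable. It had 4.18, 3.03, 7.53 and 1.74 CPM in controls 1 to 4, and 9.52 and 3.74 CPM in the libraries labelled Foxp1cKO 1 and 2. Foxp1cKO 1 and control 3 were the highest libraries, Foxp1cKO 2 was below control 1, and the groups overlapped. Its log2 fold change was 0.68 (SE 0.585, adjusted p = 0.648, edgeR), 1.13 without control 3 (adjusted p = 0.287, edgeR), 0.31 without control 3 and Foxp1cKO 1 (adjusted p = 0.886, edgeR), and -0.14 without Foxp1cKO 1 alone (adjusted p = 0.989, edgeR). Of the exon sequence of Gli1, 5.31% overlaps the antisense gene Gm47200 and 1.24% overlaps Arhgap9 on the other strand. The strand setting of the counting is not given in the sources used here, so reads from these stretches may not have been assigned to Gli1.

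**Figure D3:**
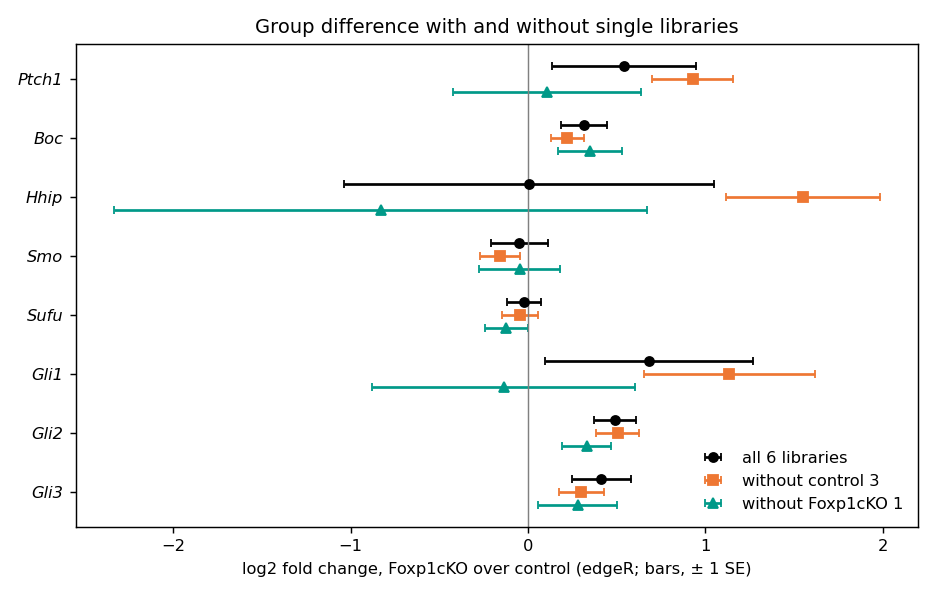
log2 fold change of each member (edgeR, libraries labelled Foxp1cKO over controls) with bars of 1 SE, from all 6 libraries (circles), without control 3 (squares) and without Foxp1cKO 1 (triangles). Ptch1, Boc, Gli2 and Gli3 stay above 0 in all 3 fits, Ptch1 between 0.11 and 0.93, whereas Hhip runs from -0.83 to 1.55 and Gli1 from -0.14 to 1.13.

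The share of each Gli in the family overlapped between the groups. Gli3 made up 66.8%, 70.4%, 59.0% and 69.8% of the summed Gli RPKM in controls 1 to 4, and 64.7% and 66.4% in the libraries labelled Foxp1cKO 1 and 2. Gli1 made up 2.10%, 1.44%, 4.00% and 0.713% in controls 1 to 4, and 3.03% and 1.46% in the libraries labelled Foxp1cKO 1 and 2. In every library Gli3 was the most abundant per length and Gli1 the least. The RPKM of Gli3 was 31.9, 48.8, 14.8 and 97.8 times that of Gli1 in controls 1 to 4, and 21.4 and 45.6 times in the libraries labelled Foxp1cKO 1 and 2. Gli2 made up 28.2% to 37.0% in the controls and 32.3% and 32.1% in the libraries labelled Foxp1cKO 1 and 2. Control 3 had the smallest excess of Gli3 over Gli1.

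Ptch1, Gli1 and Hhip were highest in the same 2 libraries, control 3 and Foxp1cKO 1. Each was far above the other controls in control 3, by a factor of 2.28 for Ptch1, 2.53 for Gli1 and 8.75 for Hhip over the mean of controls 1, 2 and 4. Among the 13855 genes with a mean of at least 1 CPM, 1.12%, 0.664% and 0.0433% had a ratio as high or higher, in the same order. Boc, Smo and Gli3 had ratios below 1 (0.784, 0.743 and 0.739), and 13.3%, 9.63% and 9.33% of genes were as low or lower. Of the 9 radial glia markers found, 5 were lowest of all 6 libraries in control 3 and 0 highest. These were Pax6 (ratio 0.736), Emx1 (0.571), Emx2 (0.452), Lhx2 (0.519) and Hes1 (0.514). Hes5, Nes and Slc1a3 had 0.815, 0.802 and 0.980, and Fabp7 had 1.08. The part of dorsal progenitor content in the low Boc, Smo and Gli3 was not tested. Being the highest or the lowest control was common in itself, since control 3 was the highest control in 31.2% of all genes and the lowest in 34.5%, so the position of control 3 alone says little and the size of the ratio is what differed. Of the libraries labelled Foxp1cKO, Foxp1cKO 1 exceeded Foxp1cKO 2 by 1.70 times in Ptch1, 2.54 times in Gli1 and 2.60 times in Hhip, ratios that 1.34%, 0.274% and 0.245% of genes reached. For Boc, Smo, Sufu, Gli2 and Gli3 that ratio was between 0.955 and 1.23. The libraries in which Ptch1, Gli1 and Hhip were highest were also the 2 with the highest sum of ventral telencephalon markers, and the part of ventral tissue in the 3 genes was not tested.

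**Figure D4:**
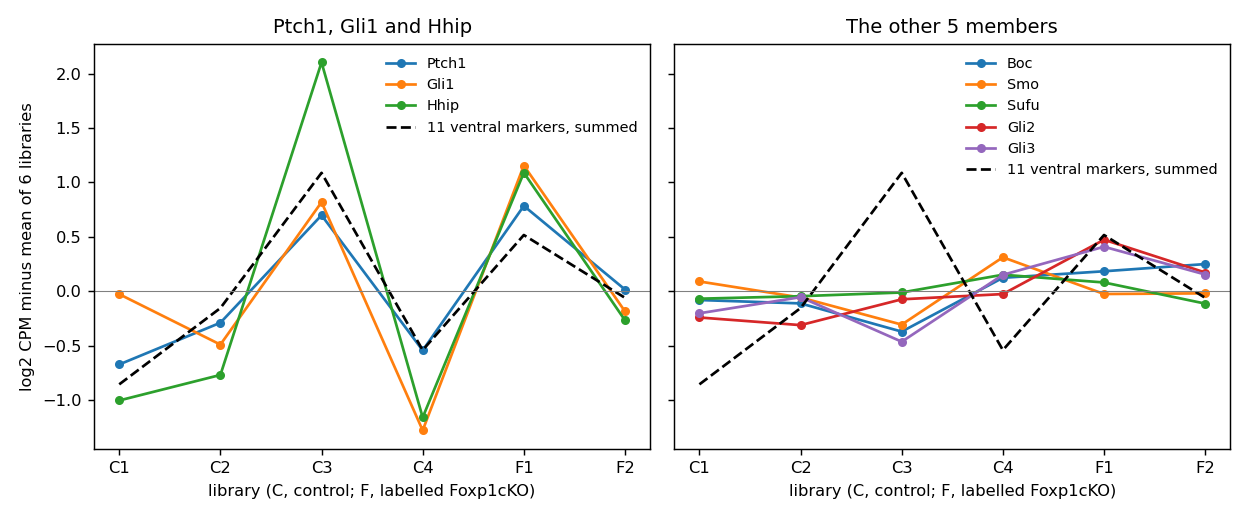
log2 CPM of each member minus its mean over the 6 libraries (left, Ptch1, Gli1 and Hhip; right, the other 5), with the summed CPM of 11 ventral telencephalon markers on the same log2 scale (dashed). Lines only join the points of a gene. Ptch1, Gli1, Hhip and the ventral markers are highest in C3 and F1, whereas Boc, Smo and Gli3 are lowest in C3.

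With control 3 set aside, both libraries labelled Foxp1cKO exceeded the remaining controls in 5 of the 8 members, Ptch1, Boc, Hhip, Gli2 and Gli3, against 18.1% of all genes. Ptch1 and Hhip entered this count only because control 3, far above the other controls in both, was left out. The share over all genes was not chosen in that way, so it is no like background and nothing is concluded from the count. The summed ventral markers were likewise higher in both libraries labelled Foxp1cKO, at 418 and 280 CPM, than in controls 1, 2 and 4, at 162 to 262 CPM. The summed radial glia markers overlapped between the groups only through control 3, the lowest library at 1672 CPM. Without it, both libraries labelled Foxp1cKO, at 2070 and 1923 CPM, were below the remaining controls, at 2111 to 2433 CPM. Nes, the largest part of that sum, had 739, 784 and 851 CPM in controls 1, 2 and 4. It had 701 and 573 CPM in the libraries labelled Foxp1cKO 1 and 2. Gene by gene the list was mixed. With all 6 libraries 5 of the 9 were higher and 4 lower, with a median log2 fold change of 0.098. Slc1a3 had 195 and 237 CPM in the libraries labelled Foxp1cKO 1 and 2, above all controls. The 5 listed pericyte markers summed to 68.2 to 88.3 CPM in the controls and to 111 and 116 CPM in the libraries labelled Foxp1cKO, with 0 of 5 past the threshold in edgeR and 3 of 5 at an unadjusted p under 0.05, all higher (6.53% of all genes), and their part in the values of the members was not tested. Markers of meninges and mesenchyme (9 of 10 found) summed to 609, 213, 120 and 426 CPM in controls 1 to 4, and to 197 and 387 CPM in the libraries labelled Foxp1cKO 1 and 2, so they were lowest where Ptch1 and Hhip were high. Endothelial markers (7 of 7 found) overlapped between the groups at 131 to 202 CPM in the controls and 154 to 191 CPM in the libraries labelled Foxp1cKO. So did the sums for neurons (7 of 8 found), intermediate progenitors (3 of 3) and cortical hem (4 of 5). Sums can hide single genes. In the hem list 3 were lower and 1 higher, with a median log2 fold change of -1.24. Rspo2 was below all controls in both libraries labelled Foxp1cKO (log2 fold change -1.91, SE 0.676, adjusted p = 0.332, edgeR). In the endothelial list 4 were higher and 3 lower. Pecam1 was above all controls in both (0.65, SE 0.169, adjusted p = 0.251, edgeR). The marker with the largest share of its list's CPM summed over the 6 libraries, a scale that does not allow for gene length, was Dlx1 for ventral telencephalon, Nes for radial glia, Rgs5 for pericytes, Col3a1 for mesenchyme, Kdr for endothelium, Map2 for neurons, Eomes for intermediate progenitors and Wnt8b for the hem. No marker list had a member at 0 counts in any library, and of the listed markers found only Lhx8 fell to 3 counts or fewer.

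The rest of the pathway was read from 5 lists. Of 58 listed genes 54 were found, and 0 of them passed an adjusted p of 0.05 in edgeR, with 6 at an unadjusted p under 0.05, 5 of these higher and 1 lower, where 13.0% of all genes reached it and 6.53% did so as higher. DESeq2 called 1, Arl13b, against 3.36% of the 15067 genes to which it gave an adjusted p, and limma 0. Their median log2 fold change was 0.025, near that of all genes. Both libraries labelled Foxp1cKO were above all controls in 7 of the 54 and below all of them in 3, where 11.5% and 13.1% of all genes were.

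Among other receptors, Gas1 and Cdon varied more among the controls (SD) than between the group means. Gas1, a co-receptor known to be lowered by Hedgehog signalling, had 165, 178, 66.3 and 248 CPM in controls 1 to 4, and 149 and 193 CPM in the libraries labelled Foxp1cKO 1 and 2. Cdon, the co-receptor related to Boc, had 609, 537, 341 and 748 CPM in controls 1 to 4, and 490 and 640 CPM in the libraries labelled Foxp1cKO 1 and 2. Gas1 and Cdon were lowest in control 3 and next lowest in Foxp1cKO 1, the reverse of Ptch1, Gli1 and Hhip. That order was not particular to them. The radial glia marker Emx1 was likewise lowest in control 3, at 68.8 CPM, and next lowest in Foxp1cKO 1, at 98.4 CPM. Pax6, Emx2, Lhx2 and Hes1 were lowest in control 3 but not next lowest in Foxp1cKO 1. Whether Gas1 and Cdon followed Hedgehog signalling or tissue content was not tested. Lrp2, an endocytic receptor that takes up Shh in the ventral forebrain, had the highest log2 fold change of the list, 0.58 (SE 0.445, adjusted p = 0.602, edgeR), and Cdon the lowest, 0.016 (SE 0.285).

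In the list of ligands and release factors, 6 of 7 genes were found. Scube2, which helps release lipid-modified ligand, was at the upper end with 0.54 (SE 0.448) and Ihh at the lower end with -0.39 (SE 0.501), the latter at 0.165 to 0.515 CPM in all 6 libraries. Disp1, which exports ligand, had 0.30 (SE 0.117, adjusted p = 0.364, edgeR), and no control reached either library labelled Foxp1cKO. Of 15 cytoplasmic regulators, 11 were lower and 4 higher, between -0.27 for Stk36, a kinase of the Fused family, and 0.11 for Gsk3b, a kinase that phosphorylates Gli proteins for processing after protein kinase A has primed them. Prkaca, the catalytic subunit of protein kinase A, which restrains the pathway, was the one of the 15 with an unadjusted p under 0.05, at -0.20 (SE 0.0831, adjusted p = 0.377, edgeR).

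The 22 cilium genes had a median log2 fold change of 0.026 and ran from -0.17 for the kinesin subunit Kif3b to 0.31 for Arl13b, a ciliary GTPase. Arl13b had 34.6, 35.1, 35.3 and 36.1 CPM in controls 1 to 4, and 43.7 and 43.5 CPM in the libraries labelled Foxp1cKO 1 and 2, so the groups were narrow and did not overlap. Its log2 fold change had an adjusted p = 0.242 in edgeR. Of 10 other target genes 7 were found, and Ccnd1, which encodes cyclin D1, had the highest log2 fold change, 0.51 (SE 0.159, adjusted p = 0.291, edgeR). Nkx2-1 had the lowest, -2.23 (SE 1.82, adjusted p = 0.630, edgeR), a value set by control 3.

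**Figure D5:**
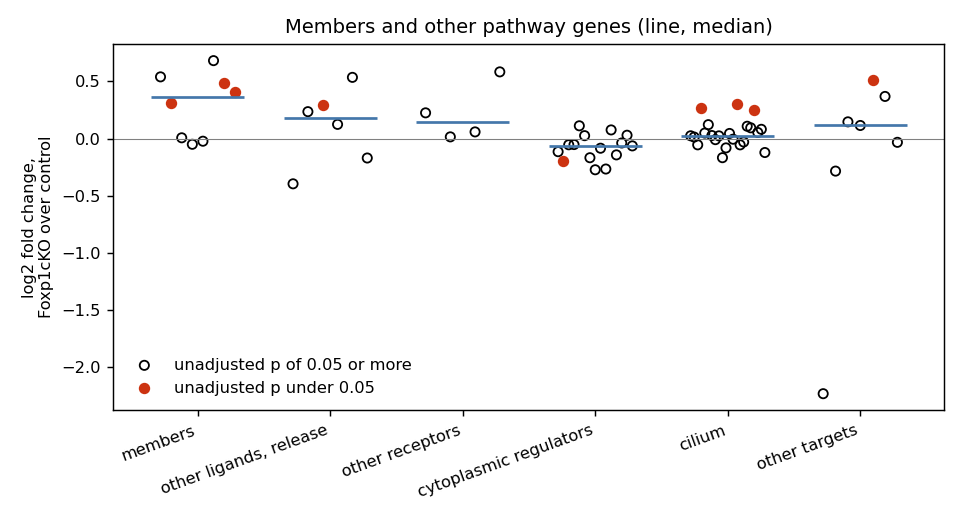
log2 fold change (edgeR, libraries labelled Foxp1cKO over controls) of the 8 members and of 54 other pathway genes in 5 lists, with a line at each list's median and filled points at an unadjusted p under 0.05. The members' median is 0.36. Those of the 5 lists are 0.18 for ligands and release, 0.14 for other receptors, -0.063 for cytoplasmic regulators, 0.026 for cilium genes and 0.12 for other targets.

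The genes whose profile over the 6 libraries was nearest to that of Gli1 were Lrp2, Acr and 1500035N22Rik. Likeness was the root mean square difference of log2 CPM after each gene was centred on its own mean, and it was 0.298, 0.328 and 0.328 for these 3, where the median over 13854 genes was 0.83. Ptch1 ranked 40 in that order, with 0.445. For Ptch1 the nearest genes were Six3os1, Trpc7 and Tfr2, at 0.109, 0.116 and 0.136, where the median was 0.595. Among the members Gli2, at 0.442, and Gli1, at 0.445, were about equally near to Ptch1, but ranked only 1229 and 1276 of 13854. Hhip, whose swings were larger, was at 0.690 and ranked 11143, farther from Ptch1 than the median gene. Six3os1, which lies beside the ventral forebrain gene Six3, had 9.85, 15.8, 31.6 and 13.0 CPM in controls 1 to 4, and 31.0 and 17.3 CPM in the libraries labelled Foxp1cKO 1 and 2. With 6 libraries many genes come close by number alone, and these likenesses are descriptions.

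RefSeq promoter windows on GRCm38.p6, short stretches around annotated start sites, were matched for 6 of the 9 genes: Ptch1, Hhip, Smo, Sufu, Gli2 and Gli3. Gli proteins bind the letters GACCACCCA, which were searched on both strands and found in 0 of the 6 windows and in 0.253% of all 32851 windows. The shorter core ACCACCC was in 1 of the 6, that of Gli2, and in 4.61% of all windows. That stretch of the Gli2 promoter is shown because Gli2 was the member nearest to the threshold. It lies at chr1:119053778-119053864 on the minus strand, and the capitals mark the core, here as its reverse complement, at positions -205 to -199 relative to the start site.
Gli2 promoter: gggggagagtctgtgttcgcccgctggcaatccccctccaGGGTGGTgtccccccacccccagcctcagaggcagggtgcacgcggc
A match of letters is not a measured site, and these windows do not reach distant enhancers.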

How the data were processed

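RNA of 6 embryos was sequenced by the authors as paired-end reads from stranded libraries, aligned to mm10 (GENCODE M17) with STAR and counted on genes with HTSeq 0.9.1 in union mode. The authors then removed genes with low counts. The deposited counts are whole and unnormalized, 50076008 to 78346979 per library, at which 3 counts are 0.0381 to 0.0596 CPM (counting error only). The strand setting of the counting is not given in the sources used here. The authors also deposited VST values of these counts (DESeq2 1.30.1), on a log2-like scale, used here only for limma.

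Counts were fitted in R 4.3.3 with edgeR 4.0.16 (TMM, quasi-likelihood test, group alone, all 17068 genes, Benjamini-Hochberg adjustment over all of them, threshold 0.05). The study's model also held the litter, which the labels do not give. Log2 CPM used a prior count of 2. DESeq2 1.42.0, limma 3.58.1, other scalings and filters, each library left out, and a replicate block were alternatives, and each test was first tried on simulated data. A fit without control 3 and Foxp1cKO 1, and an unblocked fit of the 4 libraries with shared numbers, were added after the data were seen. Symbols, positions and exon lengths came from GENCODE M21, on the same assembly, which held 17047 of the 17068 identifiers.

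The members and lists were chosen with earlier results of these data known. Named genes are the 9 members, Foxp1, the highest and the lowest log2 fold change and any gene past the threshold in each of 5 pathway lists, the 3 nearest profiles to Gli1 and to Ptch1, and in each marker list the gene with the largest share of summed CPM and any at 0 or within 3 counts. Other genes were named after their values were seen, among them Gas1, Disp1 and Prkaca. The labels give no litters, so p-values measure the spread between these libraries only. Chi-square statistics per gene between libraries of a group were 25.9 to 193, far above counting error. With 4 libraries against 2 an exact rank-sum permutation test cannot go below a two-sided p of 0.133, so none was run.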

Additional observations from a re-analysis of the deposited data

Results flagged for a closer look

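Among the 4 controls, 70 sets of values were examined (members, other pathway genes and marker sums). In 4 of them, the gap of 1 library to its nearest neighbour took up more of the whole range than Dixon's limit for 4 samples. Chance alone would mark about 1 in 20, so the number flagged was near the chance share. Neither Ptch1 nor Gli1 was flagged. In each of the 4 flagged sets the library was control 3, and it was the highest. The gap was 0.964 of the range for Hhip (5.37 CPM in control 3, 0.533 to 0.708 CPM in the others) and 0.971 for Nkx2-1 (13.2 CPM against 0.216 to 0.596 CPM). It was 0.950 for Nkx6-2, a ventral homeobox gene (2.95 CPM against 0.113 to 0.254 CPM). For Tmem67, a gene of the ciliary transition zone, it was 0.890 of a narrow range (34.2 CPM against 31.9 to 32.2 CPM).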

How the results depend on the processing

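The number of genes past the threshold was 26 with all libraries, 507 with DESeq2, 1 with the replicate block, 63 in the same 4 libraries without it, and 7 without control 3 and Foxp1cKO 1. With 1 library left out it was 2 to 96: 6 without control 1, 2 without control 2, 20 without control 3, 96 without control 4, 9 without Foxp1cKO 1 and 3 without Foxp1cKO 2. Among the 8 members it was 1 with DESeq2 and 0 in each of the 13 other alternatives, and among the other pathway genes 1 with DESeq2 and 0 in the 13 others. Members with an unadjusted p under 0.05 numbered 3, 5 in the 4 unblocked libraries, and 0 to 4 with 1 library left out (1 without control 1, control 2 or Foxp1cKO 2, and 0 without Foxp1cKO 1). Ptch1, Boc, Gli2 and Gli3 kept their sign in all 14 alternatives. The log2 fold change of Hhip ran from -0.83 to 1.55 with libraries left out (-0.30 without control 1, -0.25 without control 2, -0.30 without control 4), Gli1 from -0.14 to 1.19 and Smo from -0.16 to 0.060. Sufu ran from -0.14 to 0.055 with libraries left out, and was 0.041 with the block and 0.044 in the 4 unblocked libraries. Replicate numbers 1 and 2 occur in both groups, but deviations of same-numbered libraries correlated at -0.198 and 0.0157, so the numbers were not taken to pair the embryos. Apart from Sufu, the block turned no member's sign. For Hhip, at 37 to 391 counts, no fit brought the adjusted p under 0.05, and the 391 counts were those of control 3. Without control 3 its log2 fold change of 1.55 had an SE of 0.433, against 1.04 with all libraries. The causes of these shifts were not tested.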
